A study of Mus musculus with 28 samples.

Results

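The genes described here encode glutamate receptors and their auxiliary subunits, and their RNA was followed in the CA1 field of the mouse hippocampus. The set was a list of 30 genes: 4 AMPA, 6 NMDA, 5 kainate and 1 delta receptor subunits, 6 metabotropic receptors, 6 auxiliary subunits of AMPA receptors and 2 of kainate receptors. All 30 symbols were found among the 48709 gene identifiers of the count files, and all 30 passed the low-count filter that left 17009 genes for testing. Values are CPM (counts of a gene relative to its library's total, with TMM scaling) unless another scale is named.

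Libraries fell into 3 groups. The vorinostat group (9 libraries) came from mice with the CamkIIδC transgene that took the histone deacetylase inhibitor vorinostat in their drinking water. The transgenic vehicle group (9 libraries) carried the same transgene and received vehicle, and the wildtype vehicle group (10 libraries) came from littermates given vehicle. All mice were 3 months old, with treatment from 2 months of age for 4 weeks, and both sexes were used, with the sex behind each library not given in the sources used here. Xist RNA, which marks female cells, was at 9.35 to 9.99 log2 CPM in some libraries and at most 1.1 in the others. The high ones were wildtype vehicle 1, 3, 5, 6, 7 and 10, transgenic vehicle 2, 6 and 7, and vorinostat 1, 3, 4, 5 and 6. Their share differed between groups, and the part of sex in the fold changes was not tested beyond an Xist covariate. CamkIIδC is a splice form of a kinase that calcium and calmodulin activate. Mice of this line are known as a heart failure model with expression driven in heart muscle, so brain RNA cannot serve to check their genotype. Wildtype mice on vorinostat were not analysed here. Separate mice behind separate libraries are not stated, so the p-values only reflect spread among these samples, part of which may be technical. In dissected tissue, fewer cells of a type and less RNA per cell cannot be told apart.

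AMPA, NMDA and kainate receptors are tetrameric ion channels opened by glutamate. AMPA receptors carry most of the fast current at CA1 synapses, and NMDA receptors admit calcium when glutamate and depolarization coincide, the trigger for lasting synaptic change. Metabotropic receptors act through G proteins, and auxiliary subunits such as the TARP and cornichon proteins set how AMPA receptors travel to the surface and gate.

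The stretch that encodes the pore loop of the 4 AMPA subunits shows how alike, and how separable, their transcripts are. In Gria2 the codon in capitals is the one that RNA editing recodes to make the channel nearly impermeable to calcium. The sequences are the sense strand in GRCm38 (mm10), joined over an exon junction and read from the GENCODE M21 transcripts, with the glutamine codon at the aligned place in capitals.
Gria1: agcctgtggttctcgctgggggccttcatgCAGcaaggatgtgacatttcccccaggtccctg
Gria2: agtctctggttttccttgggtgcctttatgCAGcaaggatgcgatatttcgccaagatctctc
Gria3: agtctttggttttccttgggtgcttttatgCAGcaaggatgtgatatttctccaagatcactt
Gria4: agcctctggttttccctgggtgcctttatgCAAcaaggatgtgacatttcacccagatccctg
They lie at chr11:57243064-57243119 and chr11:57283510-57283516 (Gria1, plus strand), chr3:80706888-80706943 and chr3:80702650-80702656 (Gria2, minus strand), chrX:41610235-41610290 and chrX:41620797-41620803 (Gria3, plus strand), and chr9:4464114-4464169 and chr9:4462098-4462104 (Gria4, minus strand). Over these 63 bases the subunits were 77.8% (Gria1 with Gria2 and with Gria3) to 90.5% (Gria2 with Gria3) identical, and no AMPA subunit gene shared more than 0.73% of its 50-base stretches, the length of a read, with another annotated gene. Of the 30 genes, 9 shared none. Another 16 shared at most 2.04%. The 5 above that were Grin2a (11.57%, with Gm7328), Grm2 (8.53%, with Gm28111), Grin1 (8.24%, chiefly with the antisense gene Grin1os), Grin2d (7.57%, with the antisense gene Gm45441) and Cacng2 (5.86%, chiefly with the antisense gene A730060N03Rik). The library kit does not keep strand, so reads from these genes and from their overlapping antisense partners cannot be told apart.

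Libraries held 20230085 to 33191857 counts, with group medians of 23615586 for vorinostat, 25457735 for transgenic vehicle and 23142040 for wildtype vehicle. Vorinostat 6, 7 and 9 and wildtype vehicle 2 stood apart. Mitochondrially encoded RNA made up 6.39% to 7.48% of the counts in these 4, against 2.84% to 4.11% in the other 24 libraries. Hemoglobin RNA, here without TMM scaling, summed to 76.1 to 135 CPM in the 4, against 17.2 to 52.3 CPM in the other 24. Because 3 of the 4 are in 1 group, several fold changes are also given without them. Markers of CA1 pyramidal cells were present in every group, with a summed level of the 6 genes of 866 to 1330.2 CPM in vorinostat, 986 to 1503 CPM in transgenic vehicle and 1089 to 1387 CPM in wildtype vehicle libraries. Vorinostat 6, 7 and 9 had 866, 928 and 932 CPM of them, below the other 6 vorinostat libraries (1179.5 to 1330.2 CPM), and the part of these markers in the fold changes was not tested. Markers of dentate granule cells, neighbours of CA1, summed to a median of 62.5 CPM in vorinostat, 76.9 CPM in transgenic vehicle and 63.5 CPM in wildtype vehicle libraries. No marker of the lists read was at 0 in every library, and the CA3 marker Iyd and the choroid plexus markers Folr1 and Kcnj13, at most 0.955, 0.755 and 0.528 CPM, reached 0 in some.

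To compare genes with each other, levels were divided by the exon length of the gene (CPM per kb of the union of exons). By that measure Cnih2 was highest in all 3 groups. This cornichon protein escorts AMPA receptors and slows their closing, and it averaged 221 CPM per kb in vorinostat, 238 in transgenic vehicle and 238 in wildtype vehicle libraries. Gria1, the subunit GluA1 that is abundant in CA1 pyramidal cells, came next with 180.2, 184 and 187 CPM per kb in vorinostat, transgenic vehicle and wildtype vehicle libraries. The SDs of these genes, 23.1 to 49.4 CPM per kb, were wide enough that Cnih2 and Gria1 overlapped between libraries. Gria2 came after Gria1 with 70.2 CPM per kb in vorinostat, 61.3 in transgenic vehicle and 62.2 in wildtype vehicle libraries. Grik5, which encodes the high-affinity kainate subunit GluK5, Grin1, the subunit present in every NMDA receptor, and Cacng8, the TARP γ-8 typical of hippocampus, followed in that order in each group, at means of 36.6 to 51.2 CPM per kb. Neighbours among these 3 did not differ beyond their SDs of 1.64 to 12 CPM per kb. The order depends on the length used. By the longest transcript, Grin1 had 88.4 CPM per kb in vorinostat, 106 in transgenic vehicle and 104 in wildtype vehicle libraries. In the same groups Grik5 had 54.4, 64.2 and 65.2 and Gria2 105, 92 and 93.3 CPM per kb, so Grin1 passed Grik5 everywhere and Gria2 in the vehicle groups.

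Low in the order were Grm8, with 1.86 CPM per kb in vorinostat, 1.61 in transgenic vehicle and 1.62 in wildtype vehicle libraries, and Grin2d, an NMDA subunit typical of interneurons, with 2.73, 3.32 and 3.26 CPM per kb in the same 3 groups. Of the 30 genes Grm8 ranked 30 and Grin2d 29 in every group. Grik1 and Grm4 shared the 2 places above them. Within the metabotropic receptors the order per kb was led by Grm5, the main group I receptor of CA1, with 34.1 CPM per kb in vorinostat, 31.5 in transgenic vehicle and 32.8 in wildtype vehicle libraries. Grm3, a receptor that astrocytes also express, followed at 17.3, 17.3 and 16.4 CPM per kb. Grm2 and Grm7, mainly presynaptic receptors, averaged between 8.12 and 10.4 CPM per kb, and their SDs overlapped.

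**Figure D1:**
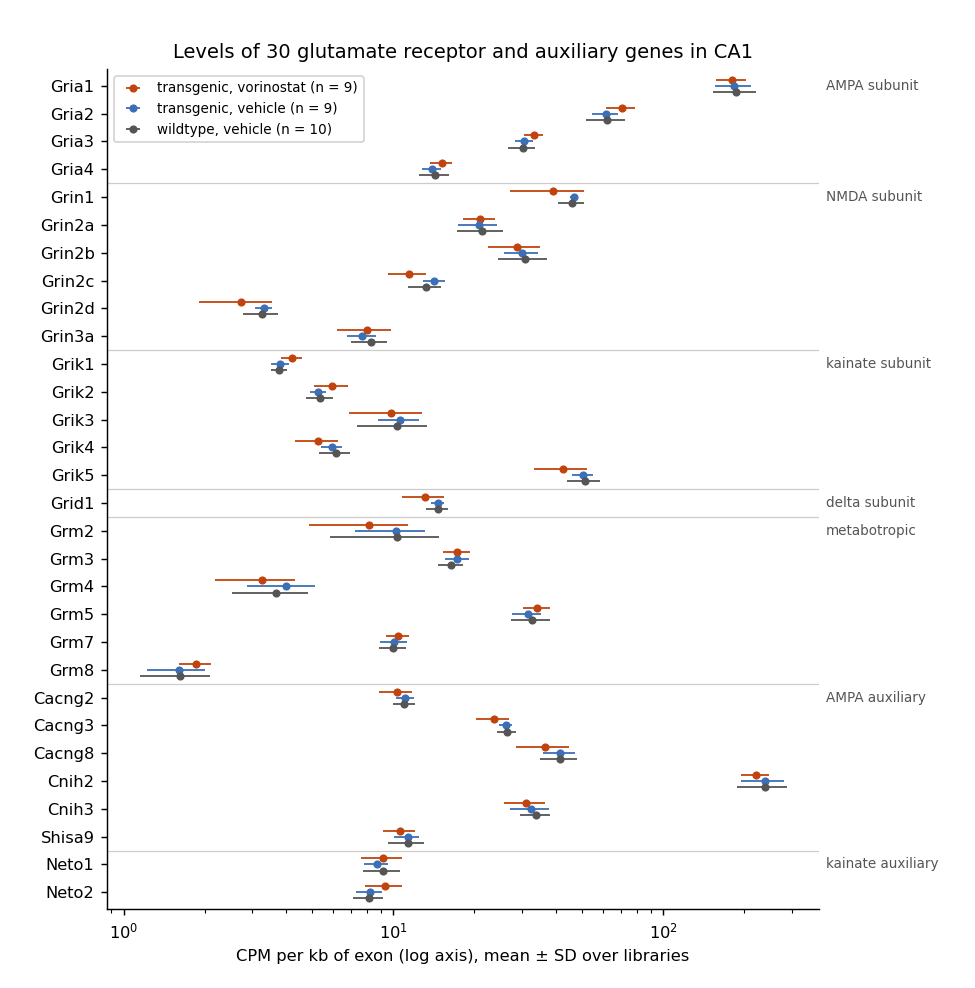
Level of each of the 30 genes in CPM per kb of exon on a log axis, by role, with points for the mean and bars for the SD over 9 vorinostat, 9 transgenic vehicle and 10 wildtype vehicle libraries. Cnih2 and Gria1 stand highest, Grin2d and Grm8 lowest, and the 3 groups lie close together for every gene.

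Expressed as a share of the summed AMPA subunit level per kb, Gria1 made up 60.2% ± 3.83 in vorinostat (SD, n = 9), 63.3% ± 2.88 in transgenic vehicle (SD, n = 9) and 63.4% ± 3.9 in wildtype vehicle libraries (SD, n = 10). Gria2 held 23.5% in vorinostat and 21.2% in each vehicle group. Gria3 stood at 10.4% to 11.2% and Gria4 at 4.87% to 5.1% over the 3 groups. Among NMDA subunits Grin1 had the largest share, 34.4% ± 4.66 in vorinostat (SD, n = 9), 38.3% ± 2.36 in transgenic vehicle (SD, n = 9) and 37.5% ± 2.91 in wildtype vehicle libraries (SD, n = 10). Grin2b, whose product slows receptor closing, held 24.4% to 25.9%, and Grin2a, whose product speeds it, 16.8% to 19.5%. Grik5 took 62.4% of the kainate subunit level in vorinostat, 66.2% in transgenic vehicle and 66.6% in wildtype vehicle libraries. These shares depend on the length used: with the longest transcript in place of the union of exons, Gria1 was at 54.8% and Grin1 at 53.9% in wildtype vehicle libraries.

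The first comparison, transgenic vehicle against wildtype vehicle, asks whether the transgene alone altered these genes. None of the 30 passed an adjusted p of 0.05 with the quasi-likelihood test of edgeR and Benjamini-Hochberg adjustment over all genes, and neither did any of the 17009 genes (0%). At an unadjusted p under 0.05 there were 0 of the 30 genes and 227 of all 17009 (1.33%). DESeq2 and limma-voom called 0 genes each. Log2 fold changes of the 30 genes lay between -0.10 and 0.12, with a median of -0.006, beside a median of 0.000 over all genes tested. In absolute size their median was 0.024, beside 0.040 over the genes tested with a known base composition.

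Gria1 ranged over 867, 1056 and 1360.2 CPM (lowest, median, highest) in transgenic vehicle and 724, 1156 and 1438 CPM in wildtype vehicle libraries. Gria2, the subunit that governs calcium entry, ranged over 771, 929 and 1112 CPM in transgenic vehicle and 721, 1003 and 1191 CPM in wildtype vehicle libraries. For both genes the transgenic vehicle values lay inside the wildtype range. Grin1 had 429, 459 and 479 CPM in transgenic vehicle and 316, 461 and 485 CPM in wildtype vehicle libraries, where the lowest value belonged to wildtype vehicle 2. The log2 fold changes were -0.03 (SE 0.101) for Gria1, -0.02 (SE 0.0881) for Gria2 and 0.03 (SE 0.125) for Grin1, with approximate 95% intervals of -0.23 to 0.17, -0.19 to 0.15 and -0.22 to 0.28.

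The 3 genes with the smallest p in this comparison were Grin2c, Grm3 and Grin3a, all at an adjusted p of 1 by edgeR. Grin2c, an NMDA subunit found in astrocytes and interneurons, ran over 61.6, 70.1 and 82.3 CPM in transgenic vehicle and 52.5, 65.2 and 84.7 CPM in wildtype vehicle libraries (log2 fold change 0.10, SE 0.0848). Grm3 ran over 44, 51.6 and 62 CPM in transgenic vehicle and 42, 50.9 and 56.5 CPM in wildtype vehicle libraries (log2 fold change 0.08, SE 0.0689). Grin3a, whose product lowers calcium entry through NMDA receptors, ran over 70.3, 95.6 and 107 CPM in transgenic vehicle and 75.7, 101 and 127 CPM in wildtype vehicle libraries (log2 fold change -0.10, SE 0.108). The groups overlapped for all 3.

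The other comparisons set vorinostat against transgenic vehicle, the effect of the drug in transgenic mice, and against wildtype vehicle. They share the vorinostat libraries, so their values are not independent of each other. In neither did any of the 30 genes pass an adjusted p of 0.05 with edgeR and Benjamini-Hochberg adjustment, as was true of all 17009 genes (0% in each). An unadjusted p under 0.05 was reached by 9 of the 30 genes against transgenic vehicle, beside 2449 of 17009 genes (14.4%), and by 8 of 30 against wildtype vehicle, beside 2141 of 17009 (12.6%). DESeq2 called 1 gene against transgenic vehicle and 0 against wildtype vehicle, none of them among the 30, and limma-voom called 0 in both. The smallest adjusted p of any of the 30 genes over 39 ways of analysing the counts was 0.171 against transgenic vehicle and 0.173 against wildtype vehicle. Log2 fold changes spanned -0.33 to 0.21 against transgenic vehicle (median -0.061, against 0.003 over all genes) and -0.34 to 0.20 against wildtype vehicle (median -0.072, against 0.006).

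**Figure D2:**
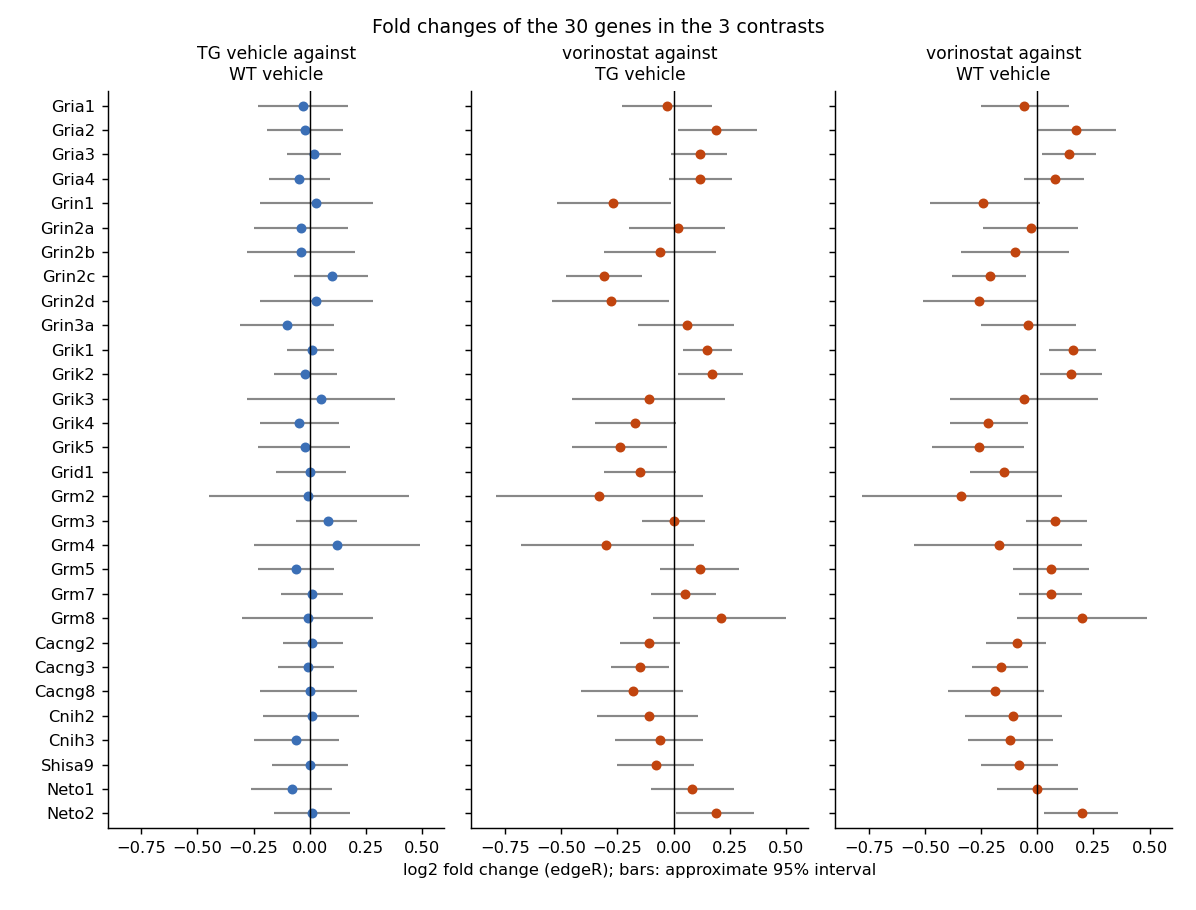
Log2 fold change of each of the 30 genes (edgeR, points) with bars for the approximate 95% interval, in 3 panels, the genotype comparison on vehicle at left and the vorinostat comparisons with transgenic vehicle (middle) and with wildtype vehicle (right). The first set hugs 0, between -0.10 and 0.12, and the vorinostat contrasts spread wider, down to -0.33 and -0.34 for Grm2.

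Among the AMPA subunits, Gria1 showed 879, 1168 and 1235 CPM (lowest, median, highest) in vorinostat, against 867, 1056 and 1360.2 CPM in transgenic vehicle libraries. Gria2 showed 891, 1089.5 and 1364 CPM in vorinostat, against 771, 929 and 1112 CPM in transgenic vehicle libraries. The Gria2 groups overlapped, with vorinostat 4, 7 and 9, at 1134, 1364 and 1181 CPM, above every transgenic vehicle library. Its log2 fold change was 0.19 (SE 0.0904, adjusted p = 0.345 by edgeR), and against wildtype vehicle 0.17 (SE 0.088, adjusted p = 0.405 by edgeR). With the 4 libraries left out, Gria2 stood at 0.11 and 0.10.

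Gria3 and Gria4, the less abundant AMPA subunits, also had positive fold changes, except with a GC-content offset in the fit, which gave -0.02 for Gria3 against transgenic vehicle and -0.01 for Gria4 against wildtype vehicle. Gria3 ran over 295, 334 and 365 CPM in vorinostat, 258, 306 and 337 CPM in transgenic vehicle and 241, 299.7 and 349 CPM in wildtype vehicle libraries, with log2 fold changes of 0.12 (SE 0.0642) and 0.14 (SE 0.0625). Gria4 ran over 83.5, 94.8 and 108 CPM in vorinostat, 75.7, 86.8 and 98.5 CPM in transgenic vehicle and 67.5, 91 and 105 CPM in wildtype vehicle libraries, with log2 fold changes of 0.12 (SE 0.071) and 0.08 (SE 0.0692). Gria4 stood at 0.04 against transgenic vehicle and 0.01 against wildtype vehicle without the 4 libraries. Gria1 stayed near 0, at -0.03 (SE 0.103) against transgenic vehicle and -0.06 (SE 0.101) against wildtype vehicle.

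The balance of Gria1 to Gria2, a common index of how calcium-permeable AMPA receptors could be, was -0.005 ± 0.246 on the log2 scale in vorinostat (SD, n = 9), 0.213 ± 0.156 in transgenic vehicle (SD, n = 9) and 0.222 ± 0.227 in wildtype vehicle libraries (SD, n = 10). Two-sided exact permutation tests gave p = 0.042 for vorinostat against transgenic vehicle (difference -0.218) and p = 0.0512 against wildtype vehicle (difference -0.227). Both had an exact permutation p of 0.154 after Benjamini-Hochberg adjustment over 6 ratio tests, so neither passed 0.05. The differences without the 4 libraries were -0.0634 (exact permutation p = 0.403) against transgenic vehicle and -0.0904 (exact permutation p = 0.425) against wildtype vehicle. For transgenic vehicle against wildtype vehicle the difference was -0.009 (exact permutation p = 0.921). Lengths cancel in these differences, but the ratios compare counts, not molecules.

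Grin1 varied more in the vorinostat group than in the vehicle groups. Its SD was 30.7% of the mean in vorinostat, 3.5% in transgenic vehicle and 11.3% in wildtype vehicle libraries. Grin1 ran over 222, 432 and 494 CPM in vorinostat, 429, 459 and 479 CPM in transgenic vehicle and 316, 461 and 485 CPM in wildtype vehicle libraries. The other 6 vorinostat libraries, at 406 to 494 CPM, overlapped the vehicle libraries, with vorinostat 4 above all of those, and vorinostat 6, 7 and 9, at 233, 227 and 222 CPM, lay below all other libraries of the study. The log2 fold change was -0.27 (SE 0.129, adjusted p = 0.345 by edgeR) against transgenic vehicle and -0.24 (SE 0.126, adjusted p = 0.407 by edgeR) against wildtype vehicle. Without the 4 libraries of high mitochondrial share it was -0.01 against transgenic vehicle and -0.02 against wildtype vehicle.

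Grin2a ran over 301, 397 and 449.8 CPM in vorinostat, 311, 347 and 457 CPM in transgenic vehicle and 233, 406 and 495 CPM in wildtype vehicle libraries. Grin2b ran over 495, 769 and 878 CPM in vorinostat, 627, 718 and 912 CPM in transgenic vehicle and 520.3, 797 and 1018 CPM in wildtype vehicle libraries. Both groups of vehicle libraries overlapped the vorinostat values, although the 3 lowest Grin2b values of the vorinostat group were again libraries 6, 7 and 9, at 495, 557 and 516 CPM. Log2 fold changes against transgenic vehicle were 0.02 (SE 0.11) for Grin2a and -0.06 (SE 0.126) for Grin2b, and 0.07 and 0.12 without the 4 libraries. The switch from Grin2b to Grin2a marks synapse maturation, and the log2 ratio of Grin2a to Grin2b was -0.905 ± 0.250 in vorinostat (SD, n = 9), -1.007 ± 0.077 in transgenic vehicle (SD, n = 9) and -0.997 ± 0.172 in wildtype vehicle libraries (SD, n = 10). Its difference of vorinostat from transgenic vehicle was 0.102 (two-sided exact permutation p = 0.278, adjusted 0.542), and it was -0.0485 without the 4 libraries.

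Grin2c had the smallest p of the 30 genes against transgenic vehicle. Its lowest, median and highest values were 42, 60 and 68.8 CPM in vorinostat, 61.6, 70.1 and 82.3 CPM in transgenic vehicle and 52.5, 65.2 and 84.7 CPM in wildtype vehicle libraries. Of the 9 vorinostat libraries 5 lay below every transgenic vehicle library, and vorinostat 6, 7 and 9, at 47.4, 42 and 50.7 CPM, lay below every vehicle library of either genotype. The log2 fold change was -0.31 (SE 0.0873, p = 0.0012, adjusted p = 0.345 by edgeR) against transgenic vehicle and -0.21 (SE 0.0853, adjusted p = 0.384 by edgeR) against wildtype vehicle, and without the 4 libraries -0.19 and -0.12. Grin2d stood at -0.28 (SE 0.132) and Grin3a at 0.06 (SE 0.11) against transgenic vehicle, and at -0.04 and 0.19 without the 4 libraries.

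Of the kainate subunits, Grik1 (GluK1, carried mostly by interneurons in CA1) had 24, 29.4 and 32.4 CPM in vorinostat, 23.4, 25.3 and 29 CPM in transgenic vehicle and 22.4, 25.5 and 27.9 CPM in wildtype vehicle libraries. In Grik1, 5 vorinostat libraries were above every vehicle library, and the remaining 4 lay within the vehicle values. The log2 fold change was 0.15 (SE 0.0559, p = 0.0128, adjusted p = 0.345 by edgeR) against transgenic vehicle and 0.16 (SE 0.0545, p = 0.00779, adjusted p = 0.384 by edgeR) against wildtype vehicle. Without the 4 libraries the value against transgenic vehicle was 0.18. Summed markers of inhibitory neurons had medians of 930.2 CPM in vorinostat, 931 CPM in transgenic vehicle and 953 CPM in wildtype vehicle libraries. Against transgenic vehicle, 4 of these 7 markers had positive and 3 negative log2 fold changes, between -0.22 and 0.15. Their part in the Grik1 values was not tested.

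Grik2, the GluK2 subunit of CA3 and dentate synapses, stood at 0.17 (SE 0.0736) against transgenic vehicle and Grik5 at -0.24 (SE 0.107). In Grik2, vorinostat 6, 7 and 9 had 84.2, 96.3 and 96 CPM, above the other 6 vorinostat libraries (67.4 to 75.6 CPM) and the transgenic vehicle libraries (61.5 to 75 CPM). In Grik5 the same 3 had 161, 141 and 167 CPM, below the other 6 vorinostat libraries (242 to 263 CPM) and the transgenic vehicle libraries (225 to 298 CPM). Without the 4 libraries the log2 fold changes were 0.03 for Grik2 and -0.05 for Grik5. Grik3 and Grik4, and Grid1 of the delta family, whose product binds cerebellins to organise synapses, stood at -0.11 (SE 0.172), -0.17 (SE 0.0923) and -0.15 (SE 0.0807), and at 0.13, -0.06 and 0.00 without the 4 libraries.

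Grm2 and Grm4 had the widest intervals of the 30 genes against transgenic vehicle. Grm2 had -0.33 (SE 0.234), Grm4 -0.30 (SE 0.194) and Grm8 0.21 (SE 0.15) against transgenic vehicle, with intervals that included 0. These values were -0.13, -0.06 and 0.24 without the 4 libraries. Grm5 stood at 0.12 (SE 0.09), Grm7 at 0.05 (SE 0.0729) and Grm3 at 0.00 (SE 0.0707). Grm3 ranged over 47.4, 51 and 65.9 CPM in vorinostat and 44, 51.6 and 62 CPM in transgenic vehicle libraries, and the groups overlapped.

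All 6 auxiliary genes of AMPA receptors had negative fold changes against transgenic vehicle, between -0.18 (Cacng8, SE 0.114) and -0.06 (Cnih3, SE 0.1), and against wildtype vehicle, between -0.19 (Cacng8) and -0.08 (Shisa9), but not under every alternative. Against transgenic vehicle, Cacng8 stood at -0.00 and Cnih3 and Shisa9 at 0.01 each without the 4 libraries, and Cnih2 at 0.06 with a GC-content offset, as it did against wildtype vehicle. Cacng3, which encodes TARP γ-3, had the smallest p among them. It ran over 52.2, 64.4 and 83.3 CPM in vorinostat, 65.5, 73.2 and 80.6 CPM in transgenic vehicle and 66, 71.9 and 85.3 CPM in wildtype vehicle libraries. In Cacng3, 5 vorinostat libraries lay below all vehicle libraries, and vorinostat 5, at 83.3 CPM, lay above every transgenic vehicle library. The log2 fold change was -0.15 (SE 0.0648, adjusted p = 0.345 by edgeR) against transgenic vehicle and -0.16 (SE 0.0632, adjusted p = 0.384 by edgeR) against wildtype vehicle, and -0.08 against transgenic vehicle without the 4 libraries. Cacng2 (stargazin) stood at -0.11 (SE 0.0698), Cnih2 at -0.11 (SE 0.114) and Shisa9 (CKAMP44) at -0.08 (SE 0.0883). Cacng2 was at -0.02 without the 4 libraries. The kainate receptor partners Neto1 and Neto2 stood at 0.08 (SE 0.0945) and 0.19 (SE 0.0871), and at 0.18 and 0.12 without the 4 libraries. Beside these values, all 6 dentate granule markers had negative fold changes against transgenic vehicle (median -0.360), as had 5 of the 6 CA1 pyramidal markers (median -0.156), with 0 of either list past the threshold by edgeR. So had 4 of the 5 CA2 markers (median -0.389) and all 3 CA3 markers tested (median -0.168), beside 8355 of all 17009 genes. Summed dentate markers ran from 47.8 to 86.3 CPM in vorinostat and from 57.5 to 121 CPM in transgenic vehicle libraries, and their part in the fold changes above was not tested.

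**Figure D3:**
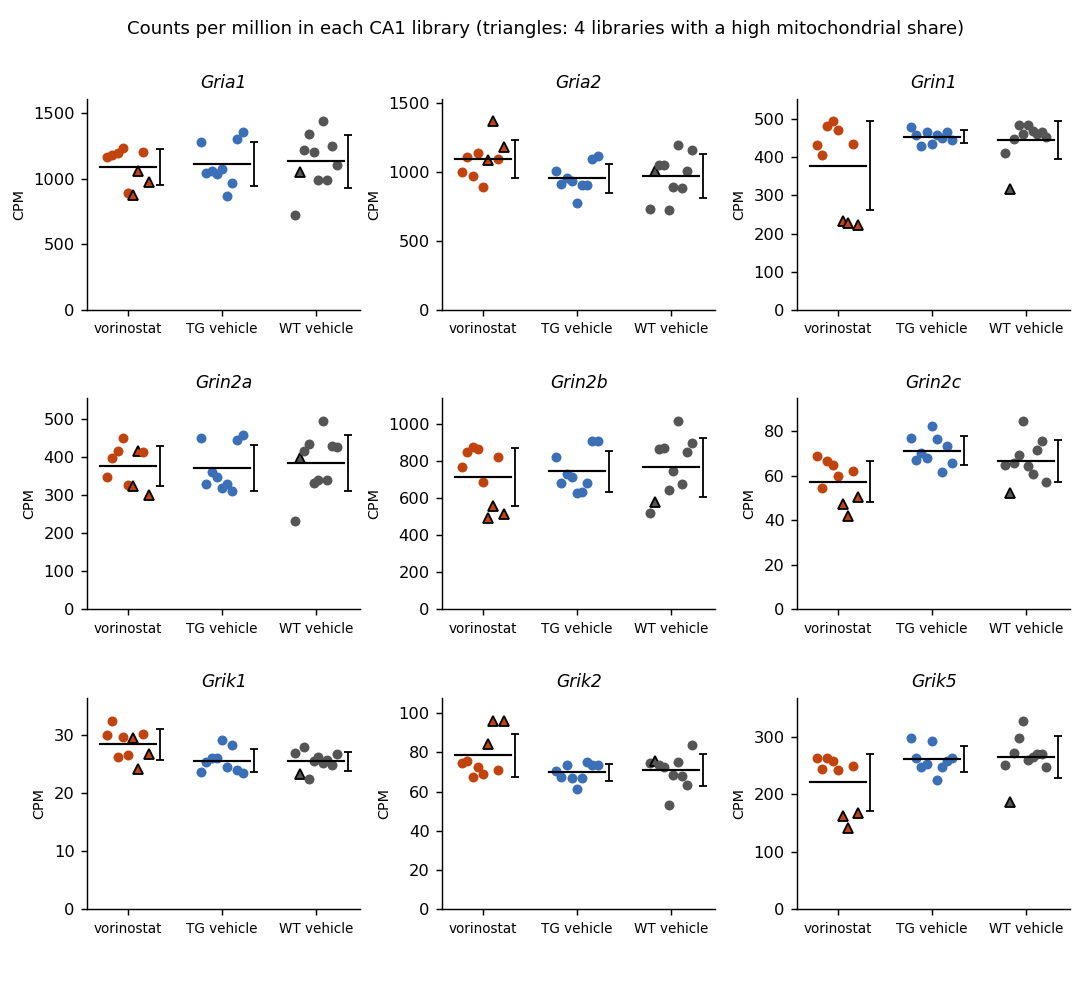
CPM of 9 genes in each library, vorinostat left, transgenic (TG) vehicle in the middle and wildtype (WT) vehicle right, with lines for the group mean and bars for the SD. Triangles are vorinostat 6, 7 and 9 and wildtype vehicle 2, and in Grin1 they lie at 233, 227, 222 and 316 CPM, below the other 24 libraries.

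Many of the extreme values belonged to the 4 libraries of high mitochondrial share. Vorinostat 6, 7 and 9 all lay below the other 6 vorinostat libraries in 9 of the 30 genes, beside 20.5% of all genes tested, and all above in 2 genes (Gria4 and Grik2), beside 19.9%. The 9 genes were Grin1, Grin2b, Grin2c, Grin2d, Grik3, Grik5, Grid1, Grm4 and Cacng8. Wildtype vehicle 2, alone of its group in its mitochondrial share, lay below the other 9 wildtype vehicle libraries in 10 of the 30 genes, beside 22.2% of all genes. In 5 genes all 4 libraries lay below all other 24, beside 11.2% of genes tested. Those 5 were Grin1, Grin2c, Grin2d, Grik5 and Grid1, chosen after their values were seen. Grin1 averaged 228 CPM in vorinostat 6, 7 and 9, against 453 CPM in the other 6 vorinostat libraries. Grin2d had 13.1, 9.4 and 11.9 CPM in those 3 libraries, against 19.5 to 25.6 CPM in the other 6. Without the 4 libraries the fold changes of the 30 genes against transgenic vehicle lay between -0.19 (Grin2c) and 0.24 (Grm8), with 18 positive and 12 negative.

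**Figure D4:**
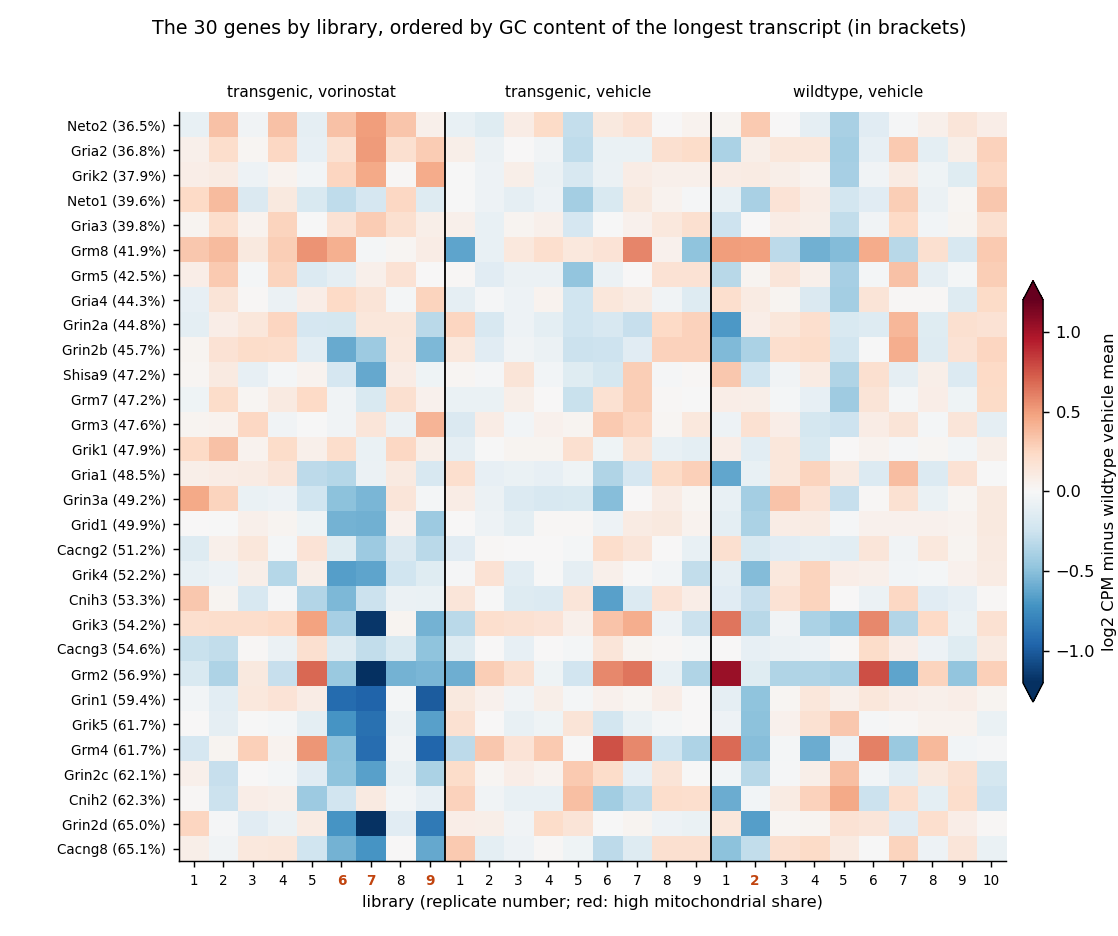
Log2 CPM of each of the 30 genes in each library minus the wildtype vehicle mean, with genes ordered from low to high GC content of the longest transcript and libraries by group; red numbers mark the 4 libraries of high mitochondrial share. The colour scale ends at 1.2 either way, beyond which only Grm2 in vorinostat 7 lies. Columns 6, 7 and 9 of the vorinostat group turn from red at the top to blue at the bottom.

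Fold changes of the 30 genes with vorinostat followed their base composition. GC content of the longest transcript ran from 36.5% (Neto2) to 65.1% (Cacng8). Stretches of 90 bases from the middle of the coding sequence show the difference, with G and C in capitals (GRCm38, GENCODE M21, sense strand).
Gria2: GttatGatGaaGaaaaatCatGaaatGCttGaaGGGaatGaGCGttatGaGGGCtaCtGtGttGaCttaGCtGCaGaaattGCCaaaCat
Grik2: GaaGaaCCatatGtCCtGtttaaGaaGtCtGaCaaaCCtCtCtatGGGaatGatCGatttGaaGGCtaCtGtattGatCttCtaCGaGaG
Grin1: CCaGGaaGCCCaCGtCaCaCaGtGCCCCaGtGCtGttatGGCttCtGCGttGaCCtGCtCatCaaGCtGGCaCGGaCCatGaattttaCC
The stretch of Gria2 (chr3:80707804-80707893, minus strand) held 38.9% G and C and that of Grik2 (chr10:49356026-49356115, minus strand) 40.0%. The stretch of Grin1 (chr2:25298394-25298403 joined to chr2:25298234-25298313, minus strand) held 55.6%. That of Neto2, not printed, held 43.3%. Over the whole coding sequence GC content was 44.7% in Gria2, 45.3% in Grik2 and 55.6% in Grin1. By the longest transcript, the measure used below, it was 36.8%, 37.9% and 59.4%.

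For vorinostat against transgenic vehicle, the log2 fold change and GC content had r = -0.89 and rho = -0.89 across the 30 genes, a description of genes measured in the same libraries. Across 16961 genes tested with a known transcript, r was -0.6 and rho -0.66. Against wildtype vehicle r was -0.84 over the 30 genes and -0.58 over all genes, and for transgenic vehicle against wildtype vehicle 0.41 and 0.06. The 10 genes of lowest GC content (36.5% to 45.7%), among them Gria2, Gria3, Grik2, Neto2 and Grm5, had 9 positive values and 1 negative, with a median of 0.119, against transgenic vehicle. The 10 of highest GC content (54.2% to 65.1%), among them Grin1, Grin2c, Grin2d, Grik5, Cacng8 and Cnih2, had 10 negative values, with a median of -0.252. The middle 10 had a median of -0.045.

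Within a library, the log2 deviation of the 30 genes from the wildtype vehicle mean had r with GC content of -0.76 to -0.64 in those 4, and -0.73 to 0.74 in the other 24. The slope was -0.457 to -0.204 on the log2 scale per 10 points of GC content in the 4, and -0.173 to 0.228 in the other 24. Without the 4 libraries r was -0.69 over the 30 genes and -0.18 over 17243 genes for vorinostat against transgenic vehicle, and the medians of the 10 genes of lowest and the 10 of highest GC content were 0.114 and -0.052. With a GC-content offset in the edgeR fit, an alternative chosen after seeing the data, r was -0.48 over the 30 genes and 0.01 over all genes. This offset was fitted on GC content over all genes tested, so the 0.01 follows from the fit and tests nothing. The same offset gave log2 fold changes of 0.01 for Gria2, -0.16 for Grin1, -0.17 for Grin2c, 0.12 for Grik1 and -0.01 for Grik2. With the mitochondrial share as a covariate instead, they were 0.12 for Gria2, -0.08 for Grin1, -0.21 for Grin2c, 0.18 for Grik1 and 0.06 for Grik2. The part of the mitochondrial share and of base composition in these fold changes was not tested beyond these alternatives.

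**Figure D5:**
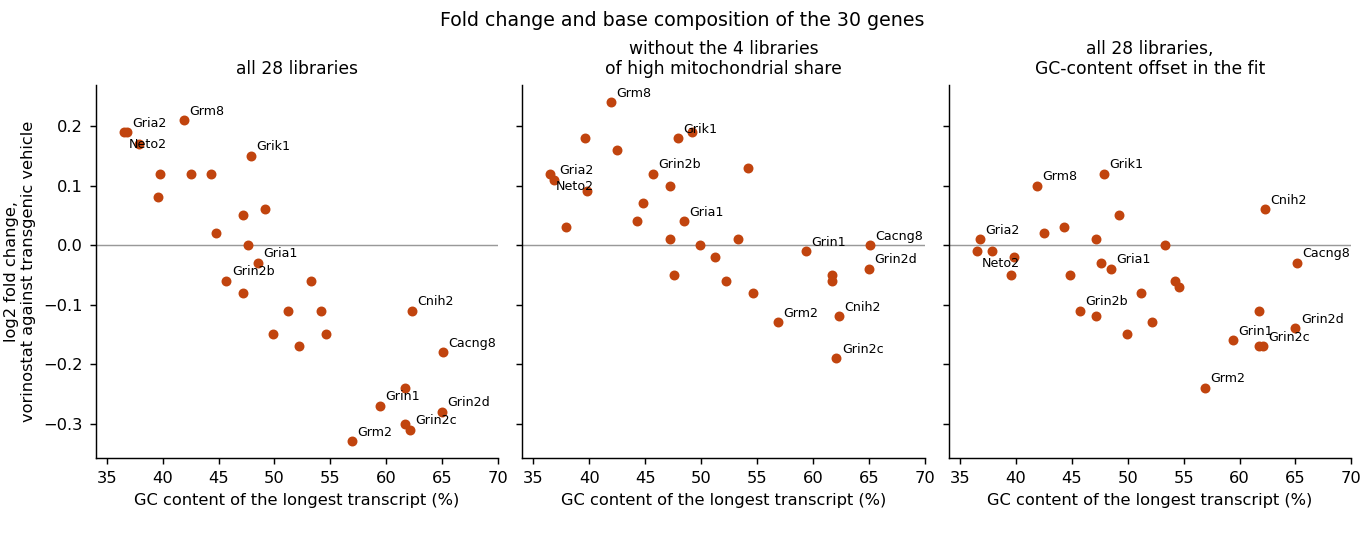
Log2 fold change for vorinostat against transgenic vehicle plotted against the GC content of the longest transcript, 1 point per gene, for all 28 libraries (left), without the 4 libraries of high mitochondrial share (middle) and with a GC-content offset (right). The points fall from left to right, with r = -0.89, -0.69 and -0.48.

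Within the vehicle groups, several genes were extreme in the same libraries, described here for libraries chosen after their values were seen. Grm2, Grm4 and Grik3 were high together in wildtype vehicle 1 (95.6, 33.6 and 139 CPM), against medians of 39.3, 20.7 and 85.1 CPM in wildtype vehicle libraries. The same library had the lowest Gria1 (724 CPM), Cnih2 (211 CPM), Cacng8 (68.5 CPM), Grin2a (233 CPM) and Grin2b (520.3 CPM) of its group. Its summed CA1 pyramidal markers were 1089 CPM, the lowest of the 10 wildtype vehicle libraries, and its summed thalamic markers 102 CPM, the highest. It was also lowest of its group in summed markers of CA2 (94.1 CPM), dentate granule cells (41.8 CPM) and microglia (206 CPM). Wildtype vehicle 6 had high Grm2, Grm4 and Grik3 as well (79.6, 32 and 133 CPM). Its CA1 marker sum was 1289 CPM and its thalamic sum 85.6 CPM. In transgenic vehicle 6, which had the lowest CA1 marker sum of its group (986 CPM) and the highest thalamic sum (86.8 CPM), Gria1 (867 CPM), Cnih2 (238 CPM), Cacng8 (77.8 CPM) and Cnih3 (58.7 CPM) were at their group's lowest. Grm4 (35.8 CPM) was at its highest there, and Cacng2 and Cacng3 too, while Grin2a, Grin2b, Grm2 and Grik3 had their extremes in other transgenic vehicle libraries. Transgenic vehicle 6 was also lowest of its group in summed CA2 markers (100.2 CPM) and highest in summed oligodendrocyte markers (6927 CPM). The summed markers of oligodendrocyte precursors (272 CPM) and of endothelium (132 CPM) were highest of the group there too. The markers' part in these values was not tested.

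The authors' deposited table of coexpression modules places the 30 genes in 10 of its 14 modules. In the authors' deposited table the green module held 6 of them, Grin1, Grin2c, Grin2d, Grik4, Grik5 and Grid1, with a median GC content of 60.6%. That module is 16.5% of the table's 18014 genes and 20% of these 30. The brown module of the authors' deposited table held Gria1, Grin2b, Cacng8, Cnih2 and Cnih3 (16.7% of the 30, against 6.28% of all genes), with Gria1 and Cacng8 at a membership score of 0.92 each. The blue module held Grik3, Grm2, Grm7, Grm8 and Cacng2 (16.7% of the 30, against 8.92% of all genes). The greenyellow module held Gria2, Gria3 and Grm5 (10% of the 30, against 4.78% of all genes), with a median GC content of 39.8%. Membership scores in the authors' deposited table ran from 0.39 (Grik1) to 0.97 (Gria2).

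The authors also deposited expression values adjusted in a mixed linear model, whose terms are not given in the sources used here. When limma was run on that whole table, 3 of the 30 genes passed an adjusted p of 0.05 for transgenic vehicle against wildtype vehicle, beside 2.1% of 18014 genes. They were Grik1 (0.16 log units, adjusted p = 0.0212), Grm4 (0.44, adjusted p = 0.0398) and Grm8 (0.47, adjusted p = 0.0409) by limma. None passed for vorinostat against transgenic vehicle, beside 0.205% of genes. For vorinostat against wildtype vehicle 14 of the 30 passed, beside 14.7% of genes. Higher in vorinostat were Gria3, Gria4, Grik1, Grik2, Grm7, Grm8 and Neto2, with Grik1 at 0.27 log units (limma adjusted p = 0.000195). Lower were Grin1 (-0.30, limma adjusted p = 0.0222), Grin2c (-0.22, limma adjusted p = 0.0169), Grik5, Grid1, Cacng3, Cacng8 and Cnih2. The 7 higher genes had a GC content of 36.5% (Neto2) to 47.9% (Grik1), and the 7 lower ones 49.9% (Grid1) to 65.1% (Cacng8). On these adjusted values, r of this difference with GC content was -0.66 over the 30 genes and -0.54 over 17962 genes. The part of base composition in the calls was not tested. All these calls rest on values the authors had already adjusted, and in the counts the same contrasts called none of the 30 genes.

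Partners of the receptors were read from 3 lists, other members of the same families (17 of 19 tested), scaffolds and trafficking proteins of the postsynapse (30 tested) and proteins that supply or clear glutamate (17 tested). In each of the 3 comparisons 0 genes of each list passed an adjusted p of 0.05 by edgeR. For vorinostat against transgenic vehicle the medians were -0.080, -0.113 and -0.042, beside 0.003 over all genes. The smallest p belonged to Prrt1, an AMPA receptor partner, at -0.33 (SE 0.125), to Rab11a, a recycling endosome GTPase, at 0.17 (SE 0.0673), and to Slc17a7, the vesicular glutamate transporter of hippocampal pyramidal cells, at -0.19 (SE 0.0836). Against wildtype vehicle the medians were -0.091, -0.105 and -0.002, with Cpt1c at -0.20 (SE 0.074), Dlgap3, which links PSD-95 to Shank proteins, at -0.22 (SE 0.0863) and the glutamine transporter Slc38a2 at 0.19 (SE 0.0719). For transgenic vehicle against wildtype vehicle they were 0.001, 0.001 and 0.023, with the activity-induced gene Arc at 0.53 (SE 0.293) and Slc38a2 at 0.15 (SE 0.0719).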

How the data were processed

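RNA of dissected CA1 was sequenced as 50-base single-end reads from TruSeq v2 libraries, which do not keep strand, per the labels' protocols. Per gene, the authors deposited raw counts. Per the submitters' processing notes, reads on mm10 went through STAR 2.5.2b and the featureCounts program (Subread 1.5.1), with FastQC 0.11.5 for quality. The gene annotation, strand option and handling of multimapping reads were not stated there. Expression values adjusted in a mixed linear model were deposited for 18014 genes and were read as log2, since neither the log base nor the model's terms were stated. A further deposited table gave each gene's module, its membership score and the p-value of that score, per the file headers.

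Of 48709 identifiers, 48349 (99.3%) matched a GENCODE M21 symbol. Genes were tested in 1 fit over all 28 libraries with edgeR 4.0.16 (TMM, robust quasi-likelihood test) in R 4.3.3, after filterByExpr (count of 10, total of 15), and p-values were adjusted by Benjamini-Hochberg over all 17009 genes, with a threshold of 0.05. Standard errors came from the fold change and the F statistic. The log2 subunit ratios used a prior count of 2 and two-sided exact permutation tests. The adjusted table was tested with limma 3.58.1. Alternatives used DESeq2 1.42.0, limma-voom, DESeq2 size factors, no filter, mitochondrial share or Xist as covariates, replicate blocks, only the groups compared, libraries left out and, chosen after seeing the data, a GC-content offset fitted by lowess per library. Python 3.11.15, pandas 2.3.3, numpy 2.4.6 and matplotlib 3.10.9 served for summaries. On simulated data of 16913 genes, the fit for vorinostat against transgenic vehicle recovered 93 of 100 changed genes at a log2 fold change of 0.5 and 100 of 100 at 1.0. The simulated counts varied independently between libraries, with no set of libraries shifting together. The changed genes were drawn from those of higher counts, with both sizes of change present at once. This recovery therefore checks the fit and does not measure what could be detected in the real libraries. Chi-square per degree of freedom between the 117 pairs of libraries within groups ran from 3.18 to 79.4, so none was merged.

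The 30 genes, the partner lists and the marker lists were chosen with earlier results of these data known. All 30 are reported, with library ranges for the AMPA subunits, Grin1, Grin2a, Grin2b and the 3 genes of smallest p in each contrast. Of each partner list the count called, the median and the gene of smallest p are given, except for 1 gene that is not reported here.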

Additional observations from a re-analysis of the deposited data

Results flagged for a closer look

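In 11 of 90 combinations of a gene and a group, 1 library lay far from the others of its group by Dixon's criterion. Chance gives about 1 in 20 such combinations, but these share libraries, so their number is not a test against chance. The share over all genes tested was not computed, so the number cannot be read as a trait of these genes. All 11 were the lowest value of their group.

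Wildtype vehicle 2, the wildtype library of high mitochondrial share, gave 5 of them. That library lay below the other 9 wildtype vehicle libraries in 22.2% of all genes tested. Its Grin1 was at 316 CPM, with the next wildtype vehicle library at 410.0 CPM. Grin2d, at 13.6 CPM, had its nearest neighbour at 19.5 CPM. Grik4 stood at 25.2 CPM against 33.7 CPM, Grik5 at 186 CPM against 248 CPM and Grid1 at 66.6 CPM against 79.8 CPM in the nearest library.

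In wildtype vehicle 1 Grin2a was at 233 CPM, with the nearest at 331 CPM. In wildtype vehicle 5 Grm7 was at 43.5 CPM, with the nearest at 54.6 CPM. Transgenic vehicle 6 had Grin3a at 70.3 CPM (nearest 87.8 CPM) and Cnih3 at 58.7 CPM (nearest 82.1 CPM), and transgenic vehicle 5 had Grm5 at 239.7 CPM (nearest 302 CPM). In the vorinostat group Shisa9 was at 38.2 CPM in library 7 (nearest 50.9 CPM).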

How the results depend on the processing

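Of 3600 fold changes of the 30 genes under the alternatives, 16 passed the threshold without a change of sign, all 16 on the deposited adjusted values, and 9 changed sign from a value larger than its standard error or with a call. The other 3575 include sign changes of values within 1 standard error of 0. All sign changes together came to at most 10 of the 30 genes in a contrast (transgenic vehicle against wildtype vehicle on the deposited values), among alternatives other than leaving out 1 library. On the counts none of the 30 genes passed in any of 39 settings. On the deposited values, a count chosen after seeing the data, limma called 379 genes (3 of the 30) for transgenic vehicle against wildtype vehicle. For vorinostat it called 37 genes (0 of the 30) against transgenic vehicle and 2645 (14 of the 30) against wildtype vehicle. DESeq2 called 1 gene for vorinostat against transgenic vehicle. Leaving out 1 library at a time gave 0 to 1 genes for that contrast (1 without vorinostat 3) and 0 to 3 for vorinostat against wildtype vehicle (3 without wildtype vehicle 2, 1 without wildtype vehicle 5), with 0 of the 30 each time. The 9 were, on the deposited values, Grin2c (-0.0394) and Grm8 (0.472) for transgenic vehicle against wildtype vehicle and Grm8 (-0.0116) for vorinostat against transgenic vehicle. With the GC-content offset, chosen after seeing the data, they included Gria3 (-0.0238), Grik2 (-0.0118) and Neto2 (-0.00524) against transgenic vehicle, and Gria4 (-0.00666) and Grik2 (-0.0105) against wildtype vehicle. Without the 4 libraries of high mitochondrial share, the last of the 9, Grid1, stood at 0.00364, and the log2 ratio of Grin2a to Grin2b differed by -0.0485 against transgenic vehicle. By the longest transcript, the shares of Gria1 and Grin1 in wildtype vehicle libraries were 54.8% and 53.9%. The cause was not tested for these changes. The median standard error of 0.0885 for vorinostat against transgenic vehicle limits what could be detected.

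Replicate numbers of the titles and of the descriptions differ and did not pair the libraries. Same-numbered libraries had correlations of their deviations of -0.339 to 0.408 over 27 pairs by title (7 over 0.1) and -0.213 to 0.232 over 26 pairs by description (7 over 0.1), and in 7 of 54 combinations a library correlated best with its own title number. A replicate block by title number gave 0, 0 and 1 genes in the 3 contrasts and 0 of the 30, and a block by description number gave 0 genes in each.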
